A study of Homo sapiens with 22 samples.

Results

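Baseline expression was compared between the SHEP lines and ACN with GI-ME-N, which are 5 of the 11 neuroblastoma cell lines of the series and were profiled on 10 of its 22 arrays. All 5 are lines with low MYCN signals. The SHEP group held SHEP-2 and SHEP21N, a clone with a MYCN transgene under tetracycline control, which was profiled without MYCN overexpression (with tetracycline at 50 ng/mL) and with MYCN overexpression. The other group held ACN and GI-ME-N. Every line was cultured in hypoxia (1% O2) and in normoxia (20% O2) for 18 hours and hybridised to 1 Affymetrix array per condition, so no line has replicate arrays. The log2 signals of hypoxia and normoxia were averaged within each line and 3 lines were set against 2. The lines were assigned to the groups by name and not by the signals compared here. Both SHEP21N lines are 1 clone and SHEP-2 has the same origin, so the 3 SHEP lines are not independent samples. The SHEP lines came from a laboratory and ACN and GI-ME-N from a cell line collection, so provider and group cannot be told apart.

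Neuroblastoma arises from the sympathoadrenal branch of the neural crest. Cultured lines fall between an adrenergic, neuroblastic type, which depends on factors such as HAND2 and GATA3 and makes catecholamines, and a substrate-adherent, mesenchymal type, which spreads flat, lays down extracellular matrix and expresses vimentin, fibronectin and CD44. SHEP cells are a well-known model of the adherent type and were subcloned from SK-N-SH. The comparison describes how such lines differ among themselves at baseline.

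The labels were checked first against marker genes. VIM (vimentin, an intermediate filament) had signals between 20292 and 113310 on the 10 arrays, FN1 (fibronectin) between 1578 and 33218 and CD44 (the hyaluronan receptor) between 6159 and 21560. All 3 mesenchymal markers were therefore bright on every array. VIM differed by -0.85 ± 0.64 (log2, SE, limma adjusted p = 0.913), FN1 by -2.42 ± 0.98 (adjusted p = 0.747) and CD44 by -0.33 ± 0.59 (adjusted p = 0.982) between the groups. TH and DBH, enzymes of catecholamine synthesis, had at most 23.6 and 76.1, and HAND2 at most 253. Epithelial CDH1, EPCAM and KRT19 stayed at or below 115, and endothelial CDH5 and VWF at or below 184, while PECAM1 had 117 to 416. Other epithelial genes were bright. KRT18, a keratin of simple epithelia, had 11393 to 38619 on the SHEP arrays, 693 and 869 in ACN and 13936 and 15006 in GI-ME-N. KRT8, its partner, reached 5943 in SHEP21N, and CLDN1, a tight junction protein, had 3457 and 3437 in SHEP-2 and at most 259.6 on the other arrays. Of 6 epithelial genes tested 5 had a positive difference (median 1.61).

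ACN stood apart from the other 4 lines in melanocytic markers. In ACN the signals in hypoxia and normoxia were 31585 and 28179 for PMEL (a melanosome structural protein), 23317 and 17998 for MLANA (a melanosome protein) and 13377 and 9582 for TYR (tyrosinase, which makes melanin). On the other 8 arrays PMEL was at most 150.3, MLANA at most 183 and TYR at most 180.0. The glial and melanocytic factor SOX10 had 10368 and 11837 in ACN and at most 123 elsewhere, and S100B had 4184 and 5067 in ACN and at most 132.7 elsewhere. MITF, the master regulator of melanocytes, reached 25296 and 26328 in ACN against at most 1389 elsewhere. GATA3 was near its lowest in ACN (12.9 and 12.7) and between 939 and 3606 in the other 4 lines. PMEL, MLANA, TYR, SOX10 and S100B were thus bright in ACN alone among the lines compared. The identity of ACN was not tested, and the results below are given with and without ACN where they rest on it. Of 17 Schwann, glial and melanocytic markers listed, 13 were on the array, and 9 had a mean signal of at least 100 and were tested. Of these 9, 8 were lower on average in the SHEP group, and the median difference was -3.42 (log2). SOX10, S100B, PMEL, TYR and MLANA reached that mean signal through ACN alone, which fixed their direction, so the median rests on ACN. Without ACN the median was 0.99, which is also the difference of SOX10, at signals of at most 123. SOX9, another factor of glial cells, had 8.78 and 147.5 in ACN and 737 to 2458 in the other 4 lines. EDNRB, an endothelin receptor, had 16056 and 14593 in ACN, 422 to 904 on the SHEP arrays and 69.8 and 16.8 in GI-ME-N.

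**Figure D1:**
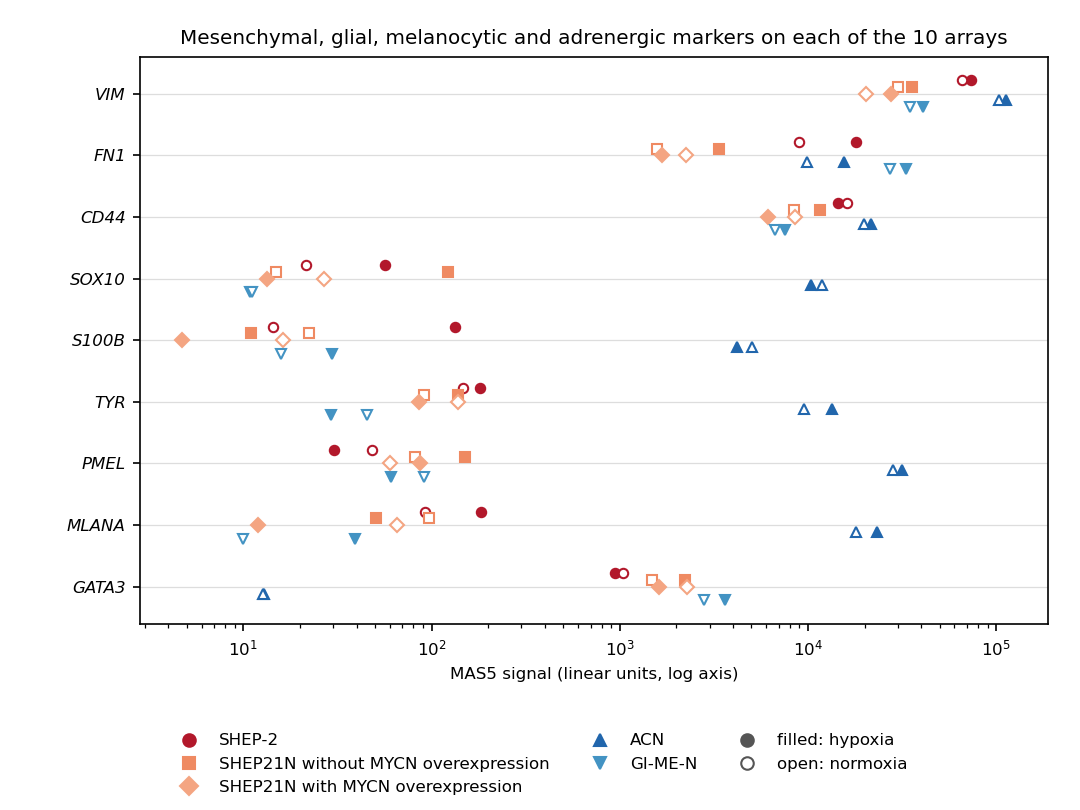
MAS5 signals (log axis) of marker genes on the 10 arrays, with a symbol for each line, filled for hypoxia and open for normoxia. VIM, FN1 and CD44 are bright on all arrays, while SOX10, S100B, TYR, PMEL and MLANA are bright in ACN only (4184 to 31585) and GATA3 is dim in ACN only.

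MYCN signals were low, as the choice of lines requires. At the probeset used for the gene, MYCN did not pass 149 on any of the 10 arrays. At another probeset the hypoxic array labelled SHEP21N with MYCN overexpression had 830.2 and the normoxic one 13.7, against 25.3 and 28.7 without overexpression. The label was thus borne out at that probeset, in hypoxia only. On the same normoxic array the ratio of 3' to 5' control probesets, a sign of RNA degradation, was 67.3 for GAPDH and 94.0 for ACTB, while the other 9 arrays had at most 1.37 for GAPDH and 5.05 for ACTB. The arrays also differed in how they were processed, because the 4 SHEP21N arrays had a lowest signal of 3.3 and the other 6 at most 0.803. The array medians were 125.2 to 133.6 in SHEP-2, 129.1 to 131.8 in ACN, 92.3 to 107.3 in SHEP21N and 70.5 to 82.9 in GI-ME-N, so that SHEP-2 resembled ACN and SHEP21N lay nearer to GI-ME-N in scale.

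Promoters are shown for 4 of the 12 called genes, all of which were dim in one group and bright in the other. They are taken from RefSeq (GRCh38.p14) and run from 250 bases before a transcription start to 50 bases after it. Each is written 5' to 3' on the strand of the gene, with each CG dinucleotide in capitals. The GTSF1 window lies at chr12:54473553-54473852 (minus strand), the POSTN window at chr13:37598719-37599018 (minus strand), the GJA1 window at chr6:121435396-121435695 (plus strand) and the MEGF10 window at chr5:127290546-127290845 (plus strand). The MEGF10 window lies inside the gene (chr5:127229300-127461222), at an internal start, while those of GTSF1, POSTN and GJA1 lie at the end of theirs.
GTSF1: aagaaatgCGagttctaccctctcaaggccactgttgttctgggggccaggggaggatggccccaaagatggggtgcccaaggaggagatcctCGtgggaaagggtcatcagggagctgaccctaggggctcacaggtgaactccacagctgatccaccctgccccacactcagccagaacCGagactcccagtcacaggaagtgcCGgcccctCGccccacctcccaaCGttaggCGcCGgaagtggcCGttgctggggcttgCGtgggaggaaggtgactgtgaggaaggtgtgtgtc
POSTN: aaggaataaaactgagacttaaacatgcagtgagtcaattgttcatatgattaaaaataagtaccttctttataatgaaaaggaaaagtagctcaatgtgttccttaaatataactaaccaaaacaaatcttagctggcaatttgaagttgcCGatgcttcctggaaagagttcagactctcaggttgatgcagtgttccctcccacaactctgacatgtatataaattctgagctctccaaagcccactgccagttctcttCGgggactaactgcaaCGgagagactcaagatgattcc
GJA1: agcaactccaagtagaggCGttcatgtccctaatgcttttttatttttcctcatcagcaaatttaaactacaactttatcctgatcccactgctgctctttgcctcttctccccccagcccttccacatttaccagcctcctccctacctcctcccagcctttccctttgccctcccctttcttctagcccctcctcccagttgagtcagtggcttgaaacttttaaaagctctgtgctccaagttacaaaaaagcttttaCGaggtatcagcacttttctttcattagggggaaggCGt
MEGF10: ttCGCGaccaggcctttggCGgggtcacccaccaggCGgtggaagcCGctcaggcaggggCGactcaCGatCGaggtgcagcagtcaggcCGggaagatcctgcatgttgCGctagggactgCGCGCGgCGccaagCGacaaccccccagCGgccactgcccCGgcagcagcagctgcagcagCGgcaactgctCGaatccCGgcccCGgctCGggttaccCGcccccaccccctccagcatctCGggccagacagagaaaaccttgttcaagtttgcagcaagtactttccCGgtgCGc
The POSTN and GJA1 windows hold 3 CG each, that of GTSF1 holds 10 and that of MEGF10 holds 26. Windows were matched for 6 of the 9 genes called higher and 1 of the 3 called lower. Those not printed, of CYP26B1, SEL1L3 and IL32, hold 19, 18 and 7 CG.

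Of the 19775 genes on the array, each read from its brightest probeset, 12545 had a mean signal of at least 100 and were tested. In limma at an adjusted p under 0.05 and at least 2-fold, 9 genes were higher in the SHEP lines (0.0717% of those tested) and 3 were lower (0.0239%), and 824 genes had an unadjusted p under 0.05. With both SHEP21N lines averaged into 1, or with any 1 SHEP line left out, no gene was called, and 3 lines against 2 cannot give an exact permutation p below 0.1. Without ACN 68 genes were higher and 16 lower, without GI-ME-N 98 and 38, with all 12 genes in both sets. With only SHEP-2 against ACN and GI-ME-N, whose arrays share a trimmed mean of 500.07 (500.01 on the SHEP21N arrays), 8 higher and 1 lower genes were called, of which 6 were among the 12. In each of these 3 fits a group is 1 line, which is assumed to vary like the other group, and without ACN or GI-ME-N that spread is the one among the related SHEP lines.

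The largest differences were those of GTSF1 and CTAG2, genes known from germ cells. GTSF1, a factor of the germline piRNA pathway, had signals in hypoxia and normoxia of 7191 and 7806 in SHEP-2, 7665 and 8317 in SHEP21N without MYCN overexpression, 8465 and 9692 with it, 48.0 and 13.8 in ACN and 3.04 and 11.7 in GI-ME-N. The lowest SHEP array was 149.8 times the highest ACN or GI-ME-N array, and the log2 difference was 9.27 ± 0.65 (SE, 3 and 2 lines, limma adjusted p = 0.0382). CTAG2 (LAGE-1, a cancer-testis antigen) had 3123 and 3499.9 in SHEP-2, 8375 and 11263 in SHEP21N without overexpression, 12063 and 15233 with it, 23.9 and 12.1 in ACN and 11.6 and 6.56 in GI-ME-N. Its log2 difference was 9.19 ± 0.85 (adjusted p = 0.0382). DSCR8 had 1990.1 and 2196 in SHEP-2, 3415 and 7423 in SHEP21N without overexpression, 3291 and 3059 with it, and at most 16.5 in ACN and GI-ME-N. The probesets of CTAG2 and DSCR8 are of a class that may also bind related transcripts. None of the 3 overlapped between the groups on any array. They were not particular to SHEP cells, since the highest signals in the 6 other lines were 11490 for GTSF1, 3123 for CTAG2 and 1044 for DSCR8.

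POSTN and GJA1 act outside and between cells. POSTN (periostin, a secreted matrix protein that binds integrins) had signals in hypoxia and normoxia of 26926 and 23085 in SHEP-2, 6019 and 7599 in SHEP21N without overexpression, 4264 and 6239.9 with it, 8.19 and 88.7 in ACN and 23.7 and 7.67 in GI-ME-N. Its log2 difference was 8.88 ± 0.73 (limma adjusted p = 0.0382), and 4 of 4 probesets of the gene were higher in the SHEP lines. The 6 other lines of the series reached 333 at most. GJA1 (connexin 43, a gap junction channel) had 13209 and 10896 in SHEP-2, 2901 and 3113 in SHEP21N without overexpression, 3759 and 6908 with it, 13.4 and 109 in ACN and 40.2 and 12.2 in GI-ME-N, a log2 difference of 7.52 ± 0.66 (adjusted p = 0.0382). Both genes were brightest in SHEP-2.

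The other 4 genes called higher were IL32, RAC2, CYP26B1 and SEL1L3. IL32, a cytokine gene, had 1980.3 and 999.9 in SHEP-2, 1752 and 1171 in SHEP21N without overexpression, 1285 and 353 with it, and at most 16.3 in ACN and GI-ME-N, a log2 difference of 7.06 ± 0.66 (limma adjusted p = 0.0382). Its lowest SHEP signal was that of the array with degraded control transcripts. The highest signal of IL32 in the 6 other lines was 14.5. RAC2, a small GTPase best known from blood cells, ranged from 3749 to 11048 on the SHEP arrays and from 24.7 to 227 on the others (6.18 ± 0.64, adjusted p = 0.0481). PTPRC, a general marker of blood cells, was between 5.68 and 377 on the 10 arrays. CYP26B1, which degrades retinoic acid, ranged from 909 to 2427 on the SHEP arrays and from 4.46 to 29.8 on the others (6.86 ± 0.65, adjusted p = 0.0382), but its other probeset differed by -0.99 with signals of at most 60.1. SEL1L3 ranged from 2647 to 4664 against 7.13 to 110.2 (6.87 ± 0.60, adjusted p = 0.0382).

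The 3 genes called lower were bright in ACN and GI-ME-N and dim in the SHEP lines. PARVA (alpha-parvin, which links integrins to actin) had 26.4 and 10.0 in SHEP-2, 64.3 and 4.30 in SHEP21N without overexpression, 76.3 and 17.7 with it, 6827 and 8145 in ACN and 1537 and 1889 in GI-ME-N. Its log2 difference was -7.47 ± 0.75 (limma adjusted p = 0.0452), and all 7 of its probesets were lower in the SHEP lines. CTHRC1, a secreted protein with a short collagen repeat, had at most 196 on the 6 SHEP arrays, 11415 and 10544 in ACN and 6613 and 4981 in GI-ME-N (-6.72 ± 0.65, adjusted p = 0.0407). In the 6 other lines CTHRC1 lay between 386 and 1506, above every SHEP array. MEGF10, an engulfment receptor, had at most 55.3 on the SHEP arrays, 2098 and 1855 in ACN and 933 and 625 in GI-ME-N (-6.64 ± 0.63, adjusted p = 0.0382). The groups did not overlap on any array in these genes. In whole cultures, fewer cells that express a gene and less RNA in each cell cannot be told apart.

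**Figure D2:**
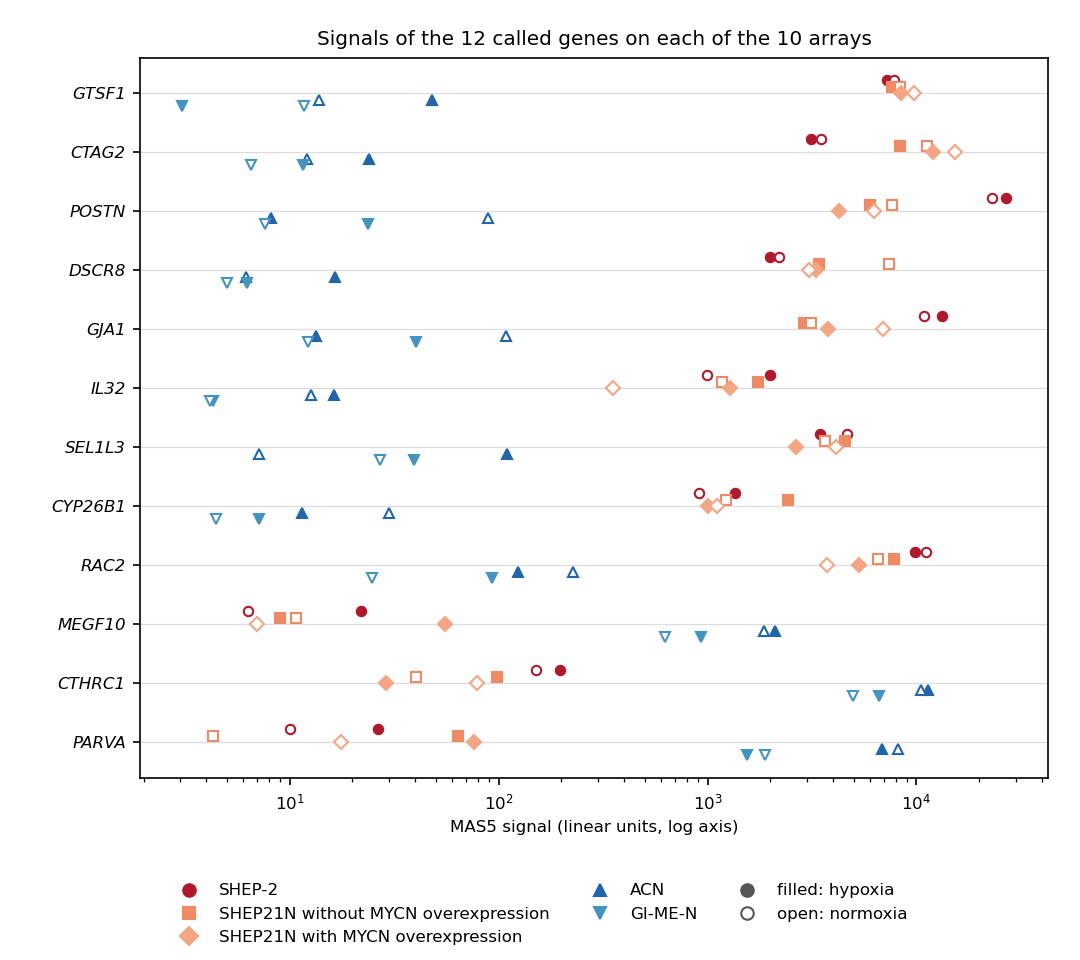
MAS5 signals (log axis) of the 12 called genes on the 10 arrays, ordered by difference, with a symbol for each line, filled for hypoxia and open for normoxia. In every gene the red symbols of the SHEP lines and the blue symbols of ACN and GI-ME-N are separated by at least 11.3-fold (MEGF10).

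Because so few lines limit the test, genes were also described by whether the nearest lines of the groups were at least 2-fold apart, with no test. This held for 318 genes higher in the SHEP lines (2.53% of those tested, median log2 difference 3.21) and 177 lower (1.41%, median -2.61). Higher genes made up 64.2% of them, but 76.6% with the values as deposited and 74.8% after quantile normalization, so the balance of directions depends on scaling. With signals under 50 set to 50, 268 and 161 genes were counted. A gene counted here differs from ACN and from GI-ME-N each, so leaving out ACN cannot remove it. The gene lists below are read against these percentages, and no list was tested on its own. Of the 12545 genes tested 6599 had a positive difference (median 0.05), 4120 without ACN (median -0.40) and 8371 without GI-ME-N (median 0.46).

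Matrix and collagen genes were mostly brighter in the SHEP lines than in ACN. Of 19 collagen chains tested 5 were apart upward and none downward, with a median difference of 2.01 (log2) against 0.05 over all genes tested. Without ACN 10 of the 19 had a positive difference and the median was 0.32 (-0.40 over all genes tested), and without GI-ME-N 16 were positive (median 2.74). COL8A1 (a short-chain collagen) had 16176 and 14344 in SHEP-2, 952 to 1873 in SHEP21N and at most 80.9 in ACN and GI-ME-N (7.61 ± 1.26, limma adjusted p = 0.134). COL4A1, a chain of basement membrane collagen, ranged from 1608 to 15448 on the SHEP arrays and had at most 930.1 in ACN and 31.4 in GI-ME-N. COL6A1 ranged from 1886 to 8492 against 236 to 579, and COL18A1 from 416 to 829.6 against 108 to 133.1. The fifth was COL4A2. Of 29 matrix glycoproteins and proteoglycans, 26 had a positive difference (median 1.33), POSTN was called, and FBLN1, GPC4 and GPC6 were apart upward. Without ACN 16 of the 29 were positive (median 0.06), and without GI-ME-N 27 were (median 2.79). FBLN1 (fibulin 1) ranged from 1066 to 4444 on the SHEP arrays and from 3.80 to 300.2 on the others (adjusted p = 0.219). COL1A1, a fibrillar chain named after its values were seen, was not apart, with 11458 to 23151 on the SHEP arrays, 35053 and 27093 in GI-ME-N and at most 52.6 in ACN.

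Genes of matrix turnover were apart in both directions. MMP3 (stromelysin, a matrix protease) ranged from 573 to 2212 on the SHEP arrays and from 10.3 to 51.8 on the others (5.45 ± 0.74, limma adjusted p = 0.0885). TIMP3, an inhibitor of such proteases, had 60.0 to 173 on the SHEP arrays, 6174 and 3852 in ACN and 1409 and 1237 in GI-ME-N (-4.61 ± 0.66, adjusted p = 0.0934). Neither passed the threshold, and neither overlapped between the groups. Of 22 proteases and inhibitors tested, 2 were apart upward (MMP3 and ADAMTS5) and 3 downward (TIMP3, SERPINE2 and MMP16). With signals under 50 set to 50, the gap between the nearest lines in ADAMTS5 fell from 2.50 to 0.30 (log2), under 2-fold. Among 12 cadherins and protocadherins 4 were apart upward and 1 downward. PCDH10 ranged from 583 to 3167 on the SHEP arrays against 99.8 to 173, while PCDH7 ranged from 74.4 to 259 against 829 to 1489. Laminins and integrins held 1 upward (LAMA5) and 2 downward (ITGA7 and ITGB8) of 22 tested.

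Cytokines were mostly brighter in the SHEP lines than in either line of the other group. Of 18 cytokines and chemokines 6 were apart upward and none downward (33.3%, median 2.23), and 15 had a positive difference without ACN (median 2.18) and 16 without GI-ME-N (median 2.44). CXCL5, a neutrophil chemokine, had 1555 and 1245 in SHEP-2, 1246 to 3063 in SHEP21N, 40.8 and 26.9 in ACN and 1.87 and 3.67 in GI-ME-N (7.56 ± 0.96, limma adjusted p = 0.0843). Its other probesets differed by 2.54 and 1.89, with signals of at most 231.6 and 168.4. The probesets used for CXCL5 and CXCL2 are of the class that may also bind related transcripts. CXCL2 ranged from 132 to 896 on the SHEP arrays and from 5.64 to 57.9 on the others, and IL7 from 272 to 1013 against 45.3 to 117. Of 26 growth factors 6 were apart upward and 1 downward, and 17 had a positive difference, against 12 without ACN (median -0.40, as over all genes tested). PDGFA, a mitogen of mesenchymal cells, ranged from 919.6 to 1701 against 4.42 to 129.6 (4.78 ± 0.77, adjusted p = 0.125), and FGF2 from 1172 to 2393 against 63.2 to 246. FGF13, an intracellular relative of the FGFs, went the other way with 76.0 to 126 on the SHEP arrays, 1418 and 1351 in ACN and 10651 and 11976 in GI-ME-N (-5.47 ± 1.11, adjusted p = 0.226). IL7R and ACKR3, named after their values were seen, were among the widest separations that were not called. IL7R, the receptor of IL7, ranged from 1719.8 to 14665 on the SHEP arrays against 9.85 to 163 (adjusted p = 0.0774). ACKR3, a scavenging receptor of CXCL12, ranged from 2533 to 12833 against 8.47 to 77.5 (adjusted p = 0.0934).

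Genes of tumour antigens and antigen presentation were mostly brighter in the SHEP lines as well. Of 17 cancer-testis antigens 3 were apart upward and none downward, with a median difference of 3.15 (2.06 without ACN, 1.56 without GI-ME-N). MAGEA10 had 3919.5 to 5279.7 on the SHEP arrays, 185 and 235 in ACN and 7.59 and 5.47 in GI-ME-N (6.87 ± 1.21, limma adjusted p = 0.165), and MAGEA1 had 2007 to 3266 against 214 to 619. The members of this family share sequence, so signals of single members are uncertain. MAGEA12 was not apart, with 4435 and 4375 in ACN, 7230.5 to 13995 in the SHEP lines and at most 115 in GI-ME-N. Of 25 genes of the interferon response and MHC class I, 21 had a positive difference (median 1.21). HLA-C, IFITM1, IFITM2 and IFITM3 were apart upward, also members of close families. Without GI-ME-N 20 of the 25 were positive (median 0.82), and without ACN 24 were (median 1.79). HLA-C, which presents peptides to T cells, ranged from 10382 to 19752 on the SHEP arrays and had 4329 and 3987 in ACN and 513 and 368 in GI-ME-N (3.26 ± 0.83, adjusted p = 0.38). GI-ME-N was thus the dimmest line here and ACN lay between. Of 22 HOX genes 20 had a positive difference (median 1.48) and 1 (HOXB4) was apart. Without GI-ME-N 16 of them were positive (median 0.65, against 0.46 over all genes tested), and without ACN 19 were (median 2.11, against -0.40). HOXC9 had signals of 324 to 919 in the SHEP lines, 359 and 362 in ACN and at most 18.5 in GI-ME-N. ACN thus lay within the SHEP range of signals. After division by the array medians its average lay 0.69 (log2) below the lowest SHEP line.

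**Figure D3:**
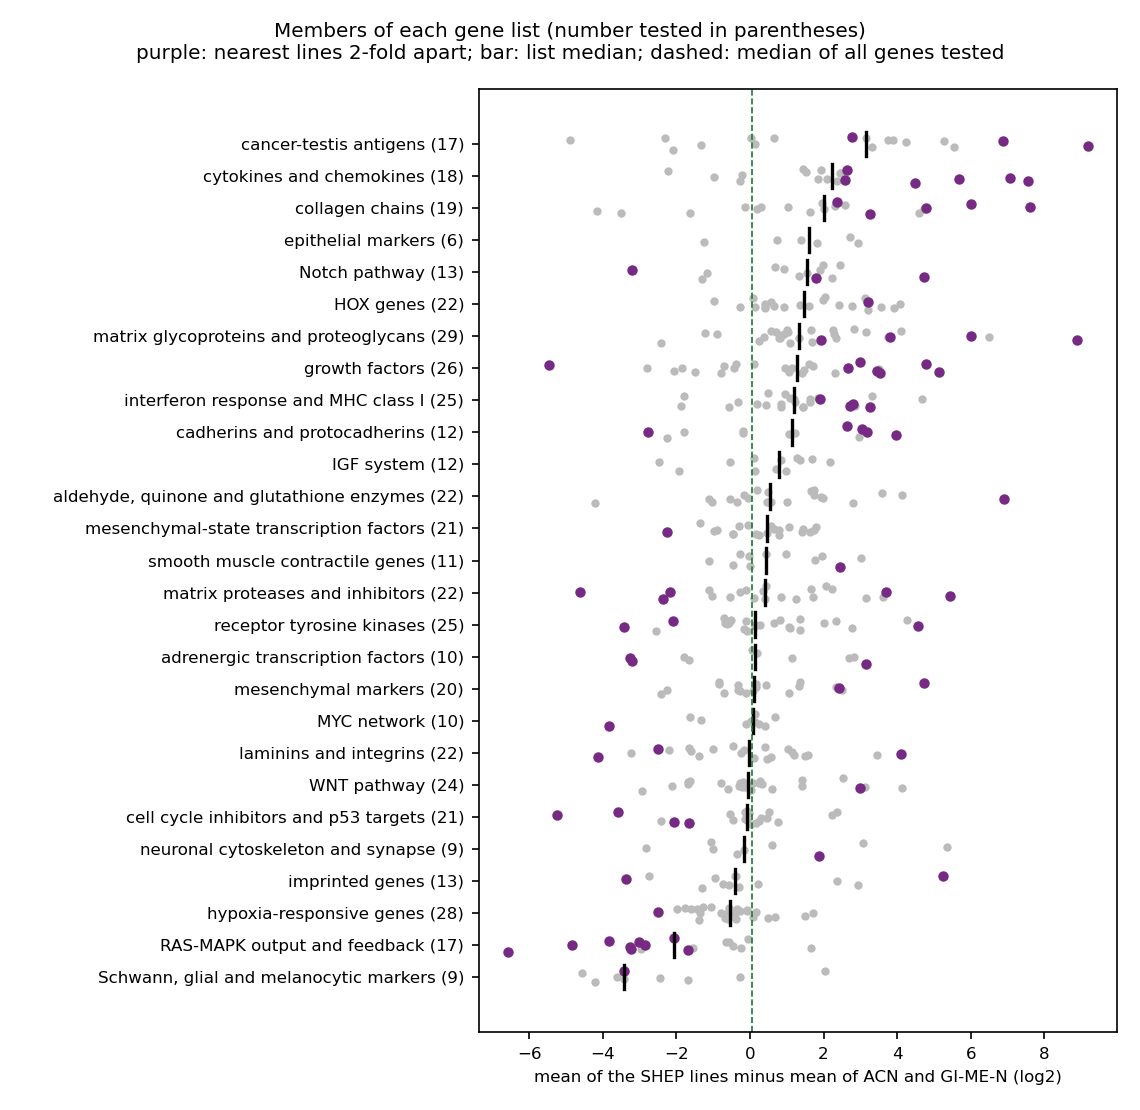
Log2 difference of the SHEP lines from ACN and GI-ME-N for each member of 27 gene lists, with purple points where the nearest lines are 2-fold apart, bars at the list medians and a dashed line at the median of all genes tested (0.05). Cancer-testis antigens, cytokines and collagens have the highest medians (3.15, 2.23 and 2.01), and the MAPK list and the glial and melanocytic list the lowest (-2.06 and -3.42). In the glial and melanocytic list, SOX10, S100B, PMEL, TYR and MLANA were tested only because of their ACN signals. The 2 lists with fewer than 5 members tested are not drawn.

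Feedback genes of the RAS-MAPK pathway were dimmer in the SHEP lines. These genes are induced by active ERK and many of them restrain it. The list was drawn up after the values of several members had been seen, so its counts are a description only. Of 17 members 9 were apart downward and none upward, and 16 had a negative difference (median -2.06). DUSP4, a nuclear phosphatase of ERK, had 15.7 to 60.3 on the SHEP arrays, 10999 and 13220 in ACN and 856 and 756 in GI-ME-N (-6.58 ± 1.01, limma adjusted p = 0.11), and 3 of 3 probesets were lower. DUSP6, a cytoplasmic ERK phosphatase, had 353 and 405 in SHEP-2, 39.3 to 62.7 in SHEP21N, 6169.6 and 3965 in ACN and 1212 and 1706 in GI-ME-N (-4.84 ± 0.94, adjusted p = 0.203). SPRY2 (a Sprouty inhibitor of receptor signalling) had 103 to 226 on the SHEP arrays against 944 to 4610, and ETV1 (an ETS factor) 164 to 388 against 1492 to 2784. SPRED2, ETV4, PHLDA1, IER3 and CCND1 were the others. None of the 9 passed the test. EGR1, named after its values were seen, was not apart, with 20456 and 18021 in SHEP-2, 574 to 2518 in SHEP21N and 1800 to 5001 in ACN and GI-ME-N.

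Cell cycle inhibitors at the CDKN2A locus were also dim in the SHEP lines. CDKN2A (p16 and ARF) had 204 and 321 in SHEP-2, 45.3 to 121 in SHEP21N, 3299.5 and 3272 in ACN and 367 and 499 in GI-ME-N (-3.59 ± 0.89, limma adjusted p = 0.373). It was apart by 2-fold after division by the array medians, which were 125.2 to 133.6 in SHEP-2 and 70.5 to 82.9 in GI-ME-N. CDKN2B (p15) had 9.30 to 66.0 on the SHEP arrays, 428 and 565 in ACN and 2233 and 3075 in GI-ME-N (-5.24 ± 1.11, adjusted p = 0.258). CCND1 (cyclin D1) had 271 to 668 against 1692 to 2294. Of 21 cell cycle inhibitors, cyclins and p53 targets, 4 were apart downward, CCNE2 being the fourth, and none upward. MYC had 453 to 486 in SHEP-2 and in SHEP21N without overexpression, 110.3 and 77.0 in SHEP21N with overexpression, 5208 and 6964 in ACN and 2241 and 2298 in GI-ME-N (-3.84 ± 0.87, adjusted p = 0.315). None of these passed the test, and MYC was the one member of 10 of its network that was apart.

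**Figure D4:**
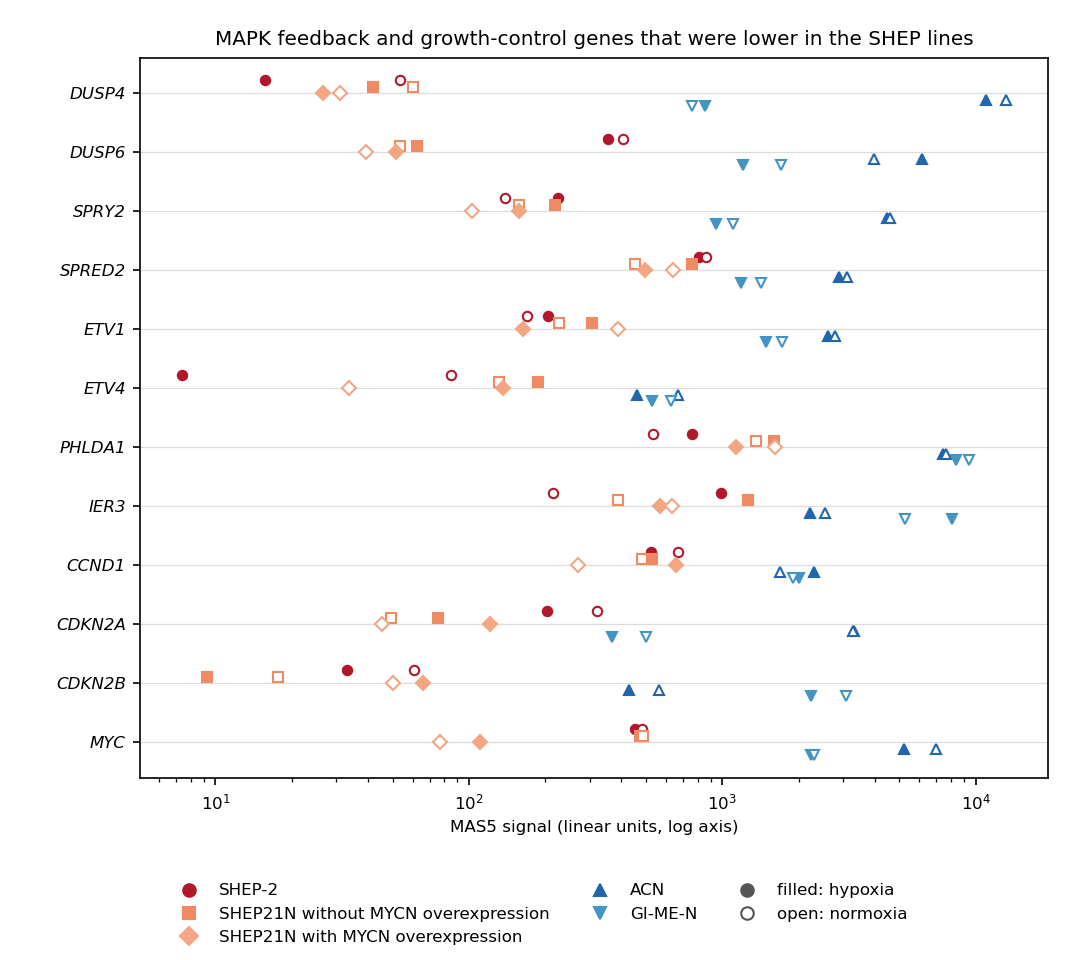
MAS5 signals (log axis) on the 10 arrays of 9 MAPK feedback genes and of CDKN2A, CDKN2B and MYC, with a symbol for each line, filled for hypoxia and open for normoxia. After division by the array medians, the line averages of the SHEP lines lie at least 2-fold below those of ACN and GI-ME-N in each gene. The signals drawn are not divided, and on them CDKN2A in SHEP-2 (204 and 321) is nearer to GI-ME-N (367 and 499). SHEP-2 lies above SHEP21N in DUSP6 (353 and 405 against 39.3 to 62.7).

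Most genes of cell identity were not apart. Of 21 mesenchymal-state transcription factors 1 was apart, SNAI2 (Slug, a repressor of epithelial genes), with 1879 to 5350.3 on the SHEP arrays against 8368 to 14018 (-2.25 ± 0.68, limma adjusted p = 0.504). Of 20 mesenchymal markers CAV2 and ENG were apart upward (10%, against 2.53% of all genes tested). Of 10 adrenergic transcription factors ISL1 was apart upward, with 535 to 1114 on the SHEP arrays, 20.8 to 169 on the others and 3588 to 12683 in the 6 other lines, so that its SHEP signals lay between both. EYA1 and HEY1 were apart downward (20%, against 1.41% of all genes tested). Of 28 hypoxia-responsive genes only NDRG1 was apart, lower in the SHEP lines, and the median of the list was -0.54. Without ACN 4 of the 21 mesenchymal-state factors, 6 of the 20 mesenchymal markers and 1 of the 28 hypoxia-responsive genes had a positive difference. Without GI-ME-N 16, 14 and 15 did. Over all 12545 genes tested 4120 were positive without ACN and 8371 without GI-ME-N. The IGF system had 0 of 12 apart, the WNT pathway 1 of 24 (DKK1), the Notch pathway 2 upward and 1 downward of 13, smooth muscle genes 1 of 11 (MYLK), receptor tyrosine kinases 1 upward and 2 downward of 25 and imprinted genes 1 upward (PLAGL1) and 1 downward (GRB10) of 13. The other lists had at most 1 member apart: ALDH1A1 among 22 aldehyde, quinone and glutathione enzymes, NCAM1 among 9 neuronal genes, ERBB3 (downward) among the glial and melanocytic genes, and none among 6 epithelial, 3 catecholamine and 1 endothelial and blood genes.

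SHEP-2 was then compared with SHEP21N. Over the 12545 genes the line averages of SHEP-2 correlated with those of SHEP21N at r = 0.813 without and 0.788 with MYCN overexpression, with GI-ME-N at 0.743 and with ACN at 0.729. These are correlations across genes, which are not independent, and all arrays share the probes and their affinities. The SHEP21N lines correlated at 0.96 with each other, and arrays of 1 line in hypoxia and normoxia at 0.899 to 0.965. Among all 10 other lines of the series the nearest to SHEP-2 were thus both SHEP21N lines. SK-N-SH, from which SHEP cells were subcloned, ranked last of the 10 for SHEP-2 (r = 0.636), next to IMR-32 (0.644) and GI-LI-N (0.65). Whether the arrays labelled SK-N-SH hold the parental line was not tested. With SHEP21N, SK-N-SH correlated at 0.697 without and 0.709 with MYCN overexpression. SHEP-2 nevertheless lay at least 2-fold from both SHEP21N lines in 39.0% of the genes, 860 above and 4031 below, and at least 16-fold in 124. The median of SHEP-2 minus SHEP21N was -0.671 without and -0.593 with MYCN overexpression, but -0.202 and -0.215 as deposited. The split into genes above and below shifts with this offset and was not counted on the values as deposited. By the count of genes within 2-fold SHEP-2 was closer to ACN (66.1%) than to SHEP21N (52.3% and 51.0%), and the array medians, which divide every signal, moved with this order. With the values as deposited those shares were 66.1%, 59.6% and 55.9%, and 60.0% for GI-ME-N (45.8% after division by the median).

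Differences from control lines that share no array were then set side by side. SHEP21N minus ACN and SHEP-2 minus GI-ME-N had the same sign in 34.5% of the genes (r = -0.082 across genes) and SHEP21N minus GI-ME-N and SHEP-2 minus ACN in 52.2% (r = 0.07). Of 1000 genes at least 4-fold different in both members of the first pair 323 had the same sign, and of 573 in the second pair 315 did. The medians over all genes were 0.713 and -0.825 in the first pair and -0.144 and 0.0139 in the second, and same-sign shares depend on such offsets. As deposited, the same-sign shares over all genes were 41.2% and 51.7%, with medians of 0.277 and -0.0654 in the first pair. Both members of a pair differ in the SHEP line and in the control line, so these values do not say which of them differs. The 12 called genes had the same sign in every such difference, which their choice fixes. Among the 318 genes apart upward SHEP-2 was within 2-fold of SHEP21N in 189 (59.4%), and among the 177 apart downward in 123 (69.5%).

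**Figure D5:**
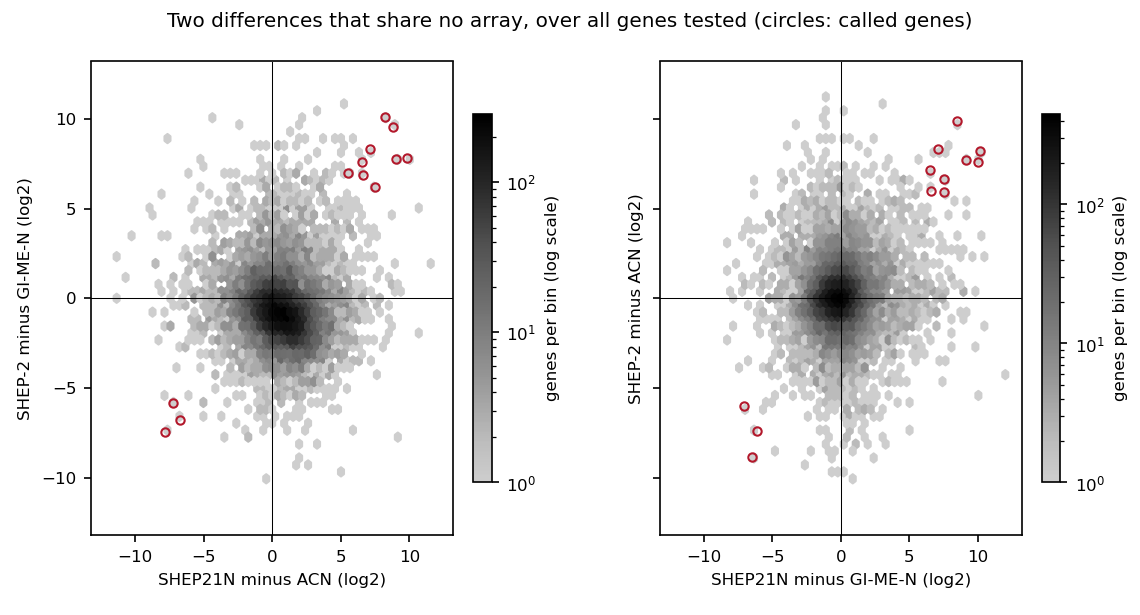
Log2 differences from ACN and GI-ME-N that share no array, SHEP21N on the horizontal and SHEP-2 on the vertical axis, with 12545 genes as a density and the 12 called genes as circles. The cloud shows no common slope (r = -0.082 and 0.07), while the called genes lie far out in the quadrants of equal sign.

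Some genes of the lists differed widely within the SHEP group, and these were singled out after their values were seen. CCL2, a monocyte chemokine counted above as apart, had 13139 and 10855 in SHEP-2, 8.30 to 108 in SHEP21N and at most 7.85 in ACN and GI-ME-N. NEFL (neurofilament light chain) had 16638 to 28971 in SHEP21N, 53.3 and 173 in SHEP-2, 1777 and 1847 in ACN and at most 4.69 in GI-ME-N. Its mean difference of 5.35 ± 3.24 therefore rests on SHEP21N, and it was -0.22 without those lines. ALDH1A1, a retinal dehydrogenase, had 4489 and 4958 in SHEP-2, 16203 to 31508 in SHEP21N, 890.4 and 1190.3 in ACN and at most 23.1 in GI-ME-N.

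ACN was the line with the most genes of its own. It lay at least 16-fold above all 4 other lines in 70 genes and below them in 113. GI-ME-N did so in 37 and 97 genes, the SHEP21N lines together in 16 and 4, and SHEP-2 in 9 and 2. The control lines correlated with each other at r = 0.659 across genes, the lowest of the 10 pairs of lines.

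Oxygen was then considered. When each line's hypoxia minus normoxia was compared between the groups, 0 genes passed an adjusted p of 0.05 in limma and 709 had an unadjusted p under 0.05. The normoxic arrays alone gave 4 genes called higher and 2 lower, and the hypoxic arrays alone gave 0. With 3 against 2 lines and 1 array per condition, the lack of calls does not show that the differences were independent of oxygen.

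The genes apart by 2-fold were not spread evenly over the chromosomes. On chromosome 8, which holds MYC and CTHRC1, 24 of 469 genes (5.12%) were apart downward against 1.41% in all, and the median difference was -0.40. On chromosome 7 the median difference was 0.51 and 4 of 597 genes (0.67%) were apart downward. Chromosomes 4 and 10 had 4.77% and 4.55% apart upward against 2.53% in all. Copy number was not analysed here.

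Promoters of the separated genes had fewer CG dinucleotides than those of all genes tested. RefSeq windows were matched for 245 of the 318 genes apart upward, 122 of the 177 apart downward and 10229 of the genes tested. A ratio of observed to expected CG under 0.6 was found in 36.3% of the windows of genes apart upward and 23.8% of those apart downward, against 19.2% of genes tested and 51.0% of all 27305 windows. The GTSF1, POSTN and GJA1 windows printed above have ratios of 0.349, 0.264 and 0.216. MEGF10, whose window lies inside the gene, has 0.769. Of the genes called higher whose windows are not printed, IL32 has 0.244, SEL1L3 0.605 and CYP26B1 0.763. The AP-1 motif TGANTCA was searched on both strands. It was in 8.16% and 5.74% of the windows of genes apart upward and downward, 4.55% of genes tested and 7.76% of all windows. It is in the POSTN and GJA1 windows, which are 2 of the 6 matched for genes called higher. The E-box CACGTG was in 11.0%, 10.7%, 10.2% and 7.43% in the same order, and the TEAD motif GGAATG in 14.3%, 20.5%, 11.2% and 14.0%. A match describes the letters of the window and not binding.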

How the data were processed

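RNA of 11 neuroblastoma lines in hypoxia and normoxia was measured on whole-genome Affymetrix expression arrays (HG-U133 Plus), and 10 of the 22 arrays were used. The deposited intensities are MAS5 signals that the authors scaled on each array to a trimmed mean of 500. Signals were expressed relative to the median of all probesets of their array, on the log2 scale, and both oxygen conditions of a line were averaged. A gene was read from its brightest probeset among the 41091 of 54675 that name 1 gene (1801 name several), and genes with a mean signal of at least 100, each group weighted equally, were tested. Groups of 3 and 2 lines were compared with limma 3.58.1 in R 4.3.3 (3 residual degrees of freedom, Benjamini-Hochberg adjustment), and a gene was called at an adjusted p under 0.05 and at least 2-fold. P-values measure the spread between lines. The number of arrays limits the precision, and no counting depth exists. Named genes were up to 15 called genes in each direction and up to 4 of each list, by p, with the markers. Members and lists were chosen with earlier results of these data known. On simulated data with 50 genes planted at each size, 0, 10, 31 and 37 were called at log2 differences of 2, 4, 6 and 8. The alternatives were other scalings, floors, filters, probeset rules, line sets, blocks and tests.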

Additional observations from a re-analysis of the deposited data

Results flagged for a closer look

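The normoxic array labelled SHEP21N with MYCN overexpression was far from the other 5 SHEP arrays in the 3' to 5' ratio of its control probesets, at 67.3 for GAPDH and 94.0 for ACTB. It was the only array to stand out in 30 groups of arrays examined, of which chance alone would mark about 1 in 20. Without this array 9 genes were higher and 2 lower in the SHEP lines, and 9 of these 11 were among the 12 called with it. The part of RNA quality in single differences was not tested.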

How the results depend on the processing

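The 9 genes called higher and 3 called lower numbered 2 and 0 with the values as deposited, 8 and 0 after quantile normalization, 5 and 1 with signals under 50 set to 50, 4 and 3 with the mean of all probesets, 4 and 2 in normoxia alone and 8 and 1 without both SHEP21N lines. The counts were 0 and 0 at an adjusted p under 0.01, in hypoxia alone, with array processing as a block, by the methods' t-test after adjustment, and with both SHEP21N lines averaged, also with the floor of 50 (an alternative chosen after seeing the data). They were 31 and 10 with 10 arrays and the line as a random block. Leaving out 1 line gave 0 to 98 higher and 0 to 38 lower genes. The 0 arose without any 1 of the SHEP lines, while 68 and 16 were called without ACN and 98 and 38 without GI-ME-N. The other alternatives (no filter, a filter of 200, an intensity trend, no 2-fold limit) gave 9 to 11 higher and 2 or 3 lower.

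Of genes apart by 2-fold, 537 were higher with no filter, and 588 were higher and 1149 lower without both SHEP21N lines. Leaving out 1 line gave 338 to 1694 higher and 236 to 1381 lower, more than with all lines because fewer lines must be apart. The counts were 882 and 486 without SHEP-2, 858 and 1381 without ACN and 1694 and 716 without GI-ME-N. The median of all genes shifted to 0.15 as deposited, 0.14 after quantile normalization, -0.39 without both SHEP21N lines, -0.40 without ACN, 0.46 without GI-ME-N and 0.32 without SHEP-2, and directions of small differences shift with it. Gene lists without ACN or GI-ME-N were added after seeing the data.

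Among single genes, none of them called, the log2 difference changed sign without ACN for L1CAM (0.31), SOX10 (0.99), CNN2 (-0.54), DKK3 (-0.32), CD44 (0.059), PECAM1 (-0.75) and MAX (-0.33), and without GI-ME-N for SNAI1 (-0.25). With array processing as a block, and likewise without both SHEP21N lines, it changed for NEFL (-0.22), PECAM1 (-0.20), IGFBP3 (0.76) and MAX (-0.18). With the mean of all probesets it changed for KRT7 (-0.23), FLT1 (0.56) and MAX (-0.13), and in hypoxia alone for PECAM1 (-0.24). The cause of these changes was not tested. No paired analysis was possible because the groups hold different lines and their replicate numbers only name them.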
